A study of Mus musculus with 4 samples.

Results

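TRIM genes encode the tripartite motif proteins, a family named for a RING finger, 1 or 2 B-box zinc fingers and a coiled coil at the N-terminus. They were described in CCR6+ group 3 innate lymphoid cells (ILC3) of the mesenteric lymph node. These innate lymphocytes have no rearranged antigen receptor. All genes whose probe set carried a single symbol of the form Trim, a number and at most 1 letter were taken, which gave 58 of 19938 named genes. Each of the 58 had 1 probe set, so no choice between probe sets was needed. Another 6 probe sets carried a TRIM symbol together with other symbols and were not used. Trim5, Trim17, Trim30b, Trim43a, Trim43b, Trim43c, Trim60 and Trim61 are therefore not analysed here. Trim30c and Trim34b were not among the 58 genes either. Of the 6 probe sets, 3 had a mean at or above the lowest mean called above background by the test described below.

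The 4 arrays formed 1 group and were numbered 1 to 4. Each was hybridised with biotin-labelled total RNA of cells sorted as CD127+ CD90.2+ CCR6+ ST2- from lymph nodes of naive C57BL/6 mice. No second cell type or condition was analysed, so nothing below compares conditions. Whether each sample is a separate animal is not stated, so the SD between arrays may be partly technical.

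TRIM proteins mostly act as ubiquitin ligases, in which the RING finger recruits a ubiquitin-conjugating enzyme and the C-terminal domain picks the target. Many with a PRY-SPRY domain restrict viruses or tune the signals of RNA and DNA sensors, and several are induced by interferon. The TIF1 members instead carry a PHD finger and a bromodomain and regulate transcription on chromatin. The family name does not make every member a ligase: Trim14, Trim16, Trim29, Trim44 and Trim66 are known to lack a RING finger.

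Because several TRIM genes are known interferon targets, the promoter sequences of the family were searched for the core of the interferon-stimulated response element, written GAAANNGAAA, or TTTCNNTTTC on the other strand. RefSeq promoter sequences of build GRCm38.p6, 250 bases before to 50 bases after a start, were given for 46 of the 58 genes. Of these, 8 (17.4%) held the core, against 1079 of 27025 genes (3.99%) overall. Among named genes on the arrays with a promoter given, 3.81% of those called above background in these cells held it. Of those not called, 3.96% did. The Trim30a and Trim30d promoters are near copies, and the Trim12a and Trim12c windows below shared 28 of 30 bases. These counts are therefore not over independent sequences. Of the 8, 7 were above background in these cells by the test described below. The count was 22 for the 46 genes with a promoter, the 7 included, and the share of all named genes was 46.2%. Of the 8, 5 belong to the Trim12, Trim30 and Trim34 genes, which are close copies. Whether the core goes with the call was not tested. A match is a description of the letters and was not tested as a binding site. The 30 bases around each match are shown 5′ to 3′ on the gene's strand, with the matched core in capitals.
Trim30a: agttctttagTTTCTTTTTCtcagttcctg
Trim30d: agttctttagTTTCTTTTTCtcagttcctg
Trim12a: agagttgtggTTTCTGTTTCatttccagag
Trim12c: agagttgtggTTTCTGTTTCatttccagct
Trim34a: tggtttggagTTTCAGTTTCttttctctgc
Trim21: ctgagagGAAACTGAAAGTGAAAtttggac
Trim26: cttccgaTTTCACTTTCCTTTTCtcgggcc
Trim2: tcagctttggTTTCCTTTTCtctaagacag

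The windows of Trim30a (chr7:104465210-104465239, minus strand) and Trim30d (chr7:104507871-104507900, minus strand) were the same in all 30 bases, and 276 of 295 bases (93.6%) were the same when the promoters were aligned on the core without gaps. A further start of Trim30a had the same core at chr7:104446104-104446133. The windows of Trim12a (chr7:104315466-104315495, minus strand) and Trim12c (chr7:104353359-104353388, minus strand) shared 28 of 30 bases, but aligned on the core without gaps the promoters matched in 120 of 261 bases (46.0%), so their likeness without gaps did not extend over the whole promoter. Trim34a lay at chr7:104244457-104244486 on the plus strand, and Trim21, whose pair of overlapping cores ran from base 14 to base 29 after the start, at chr7:102565447-102565476 on the minus strand. Trim26, also with a pair of overlapping cores, lay at chr17:36836979-36837008 on the plus strand, and Trim2 at chr3:84212791-84212820 on the minus strand. The core lay before the start in Trim12c, Trim26, Trim30d and the first Trim30a promoter, and after it in the others.

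A large part of the family was above background, close to the share of all genes. The test placed the mean log2 level of a gene over the 4 arrays among 1237 background genes, chemosensory receptors of the nose and tongue, one-sided, with Benjamini-Hochberg adjustment over all named genes and a threshold of 0.05. By it, 29 of 58 TRIM genes (50%) were called above background, against 46.2% of all 19938 named genes. The median mean level was 6.42 over the TRIM genes, against 6.16 over all named genes. Of 15 measured genes of other organs, kept as a negative control, 4 were called, and their highest value on any array was 7.42. A stricter reading therefore counted the genes that lay above 7.42 on every array. This held for 15 TRIM genes (25.9%), against 24.1% of all named genes. On every array 33 TRIM genes (56.9%) exceeded the 95th percentile of background genes, against 54.4% of all named genes, and limma's test against that percentile also called 33, against 53.9%. Each of these shares was close to that of all genes, so the family as a whole did not stand apart.

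**Figure D1:**
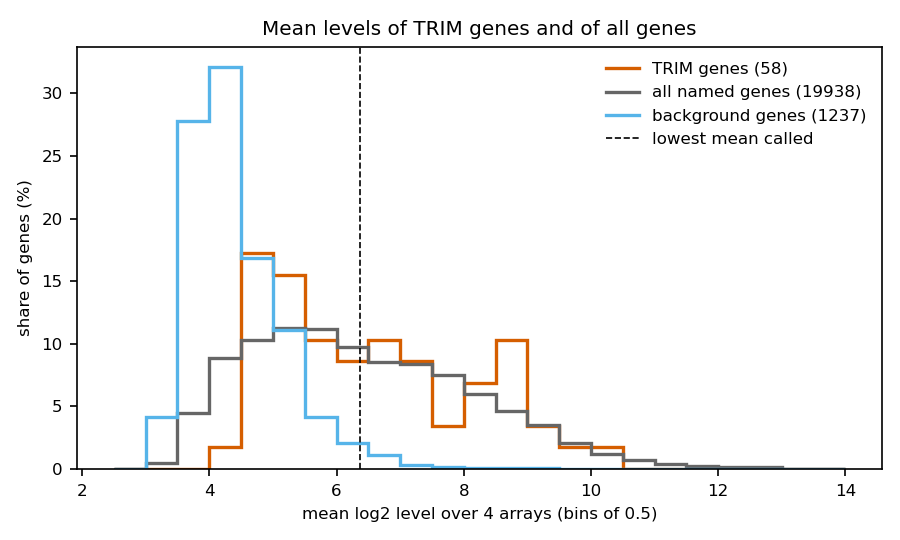
Share of genes (y axis, percent) by mean log2 level over 4 arrays (x axis, bins of 0.5) for 58 TRIM genes, all 19938 named genes and 1237 background genes. The TRIM genes spread over the range of all genes, and 29 lie right of the dashed line, the lowest mean called above background (6.37).

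The genes of the sort gate were clearly measured, with Il7r, which encodes CD127, at 12.56 ± 0.06 (SD, n = 4, as for all means that follow), Thy1 at 11.36 ± 0.15 and Ccr6 at 10.49 ± 0.09, and 8 of 8 measured ILC3 markers were above the genes of other organs. Marker genes of other cell types were called too, and the share called over all named genes was 46.2%. Whether their RNA came from other cells or from the ILC3 was not tested. B cell markers were called in 10 of 11 cases and their list mean was 8.67, 7.82, 8.86 and 7.68 on arrays 1 to 4, while T cell markers were called in 9 of 11 cases with list means between 7.47 and 7.81. NK cell and ILC1 markers were called in 7 of 11 cases with list means between 6.32 and 6.83, and dendritic cell and macrophage markers in 4 of 12 with list means between 6.08 and 6.36. How much of any TRIM level came from other cells was not tested. Fewer cells of a type cannot be told apart from less RNA per cell.

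**Figure D2:**
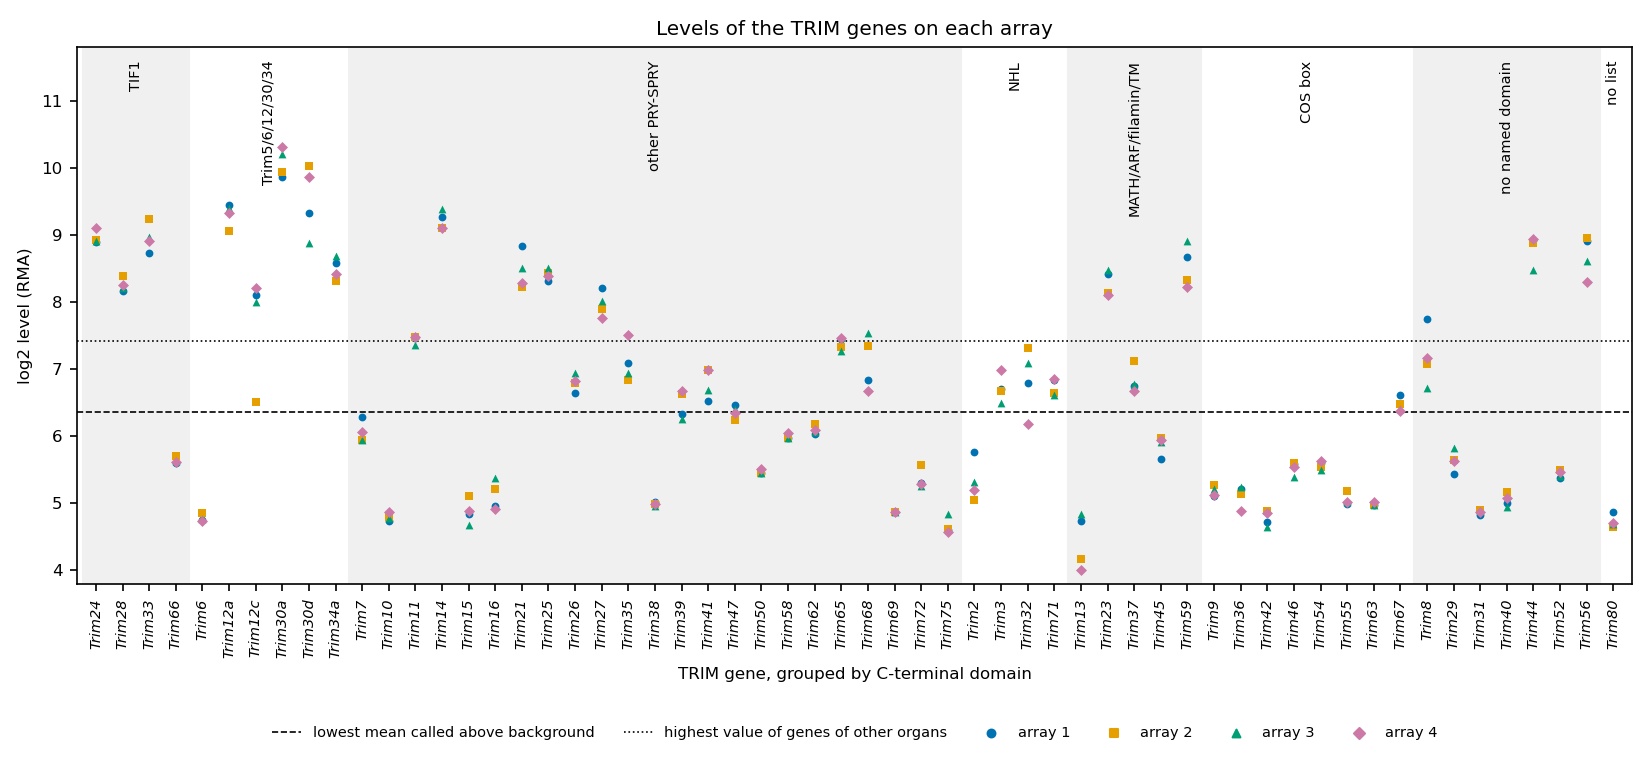
Log2 level (y axis) of each of the 58 TRIM genes (x axis, grouped by C-terminal domain and ordered by number within a group), with 1 symbol for each array. The dashed line is the lowest mean called above background (6.37) and the dotted line the highest value of the genes of other organs (7.42). Heights of different genes come from different probe sets and are not a ranking of RNA amounts.

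Genes of the TIF1 group, the chromatin regulators of the family, were above background in 3 of 4 cases, against 46.2% of all named genes. The same 3 lay above the genes of other organs on every array, against 24.1% of all named genes. Trim28, known as KAP1, is the co-repressor that KRAB zinc finger proteins recruit to silence retroelements. It was at 8.16, 8.39, 8.20 and 8.26 on arrays 1 to 4 (8.25 ± 0.10), with an adjusted detection p of 0.0143. Trim24, or TIF1α, a co-regulator of nuclear receptors, was at 8.90, 8.92, 8.91 and 9.10 (8.96 ± 0.10). Trim33, or TIF1γ, which binds SMAD proteins downstream of TGF-β, was at 8.74, 9.24, 8.97 and 8.92 (8.96 ± 0.21). Both had an adjusted detection p of 0.0143. The values of each gene differed by at most 0.50 log2 units between the 4 arrays. Trim66, the RING-less member known mainly from testis, was at 5.64 ± 0.05 and was not called.

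Partners of the TIF1 proteins were measured alongside them. All 13 genes of a list of repressor and SMAD partners were called and 11 were above the genes of other organs. The shares of all named genes were 46.2% and 24.1%. Atf7ip, which stabilises the histone methyltransferase SETDB1, was at 10.25 ± 0.03. The remodeller gene Chd4 was at 9.98 ± 0.16 and the histone deacetylase gene Hdac1 at 9.89 ± 0.18. Cbx3, which encodes an HP1 protein, was at 9.68 ± 0.17. Setdb1 itself, at 7.59 ± 0.18, was called but fell just below the highest negative control value on array 3, at 7.41 against 7.42, and Smad4 was at 9.003 ± 0.171. Both were chosen after their values were seen.

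The genes related to Trim5, Trim6, Trim12, Trim30 and Trim34 lie close together in 1 cluster of 10 family genes. They were above background in 5 of 6 measured cases, against 46.2% of all named genes. Above the genes of other organs on every array were 4 of them, against 24.1% of all named genes. This cluster is the counterpart of the human TRIM5 locus, known for proteins that recognise retroviral capsids. Trim30a, an inhibitor of NF-κB signalling that acts on the TAB2 and TAB3 adaptors, was at 9.87, 9.94, 10.21 and 10.30 (10.08 ± 0.21), with an adjusted detection p of 0.0108. Trim30d was at 9.32, 10.02, 8.87 and 9.87 (9.52 ± 0.53), with an adjusted p of 0.0108. It was lower on arrays 1 and 3 than on arrays 2 and 4, an order that Trim30a did not show. Trim12a was at 9.45, 9.05, 9.41 and 9.33 (9.31 ± 0.18, adjusted p of 0.0108) and Trim34a at 8.58, 8.31, 8.69 and 8.42 (8.50 ± 0.17, adjusted p of 0.0143).

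Trim12c, which is known to act with the adaptor TRAF6 in interferon and NF-κB signalling, was at 8.112, 6.504, 8.003 and 8.202 (7.71 ± 0.80) and was called with an adjusted p of 0.0161. Array 2 stood 1.498 log2 units below the nearest other array, and the largest difference between arrays was 1.70 log2 units, a fold of 3.24. Trim12a was also at its lowest on array 2, by 0.28 log2 units. Trim6 was at 4.78 ± 0.05 and was not called. These genes are close copies of each other, so probe sets for Trim12a and Trim12c, or for Trim30a and Trim30d, may bind RNA of the partner, and their levels are uncertain to that degree.

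The other genes with a PRY-SPRY domain were called in 11 of 23 cases (47.8%), close to the 46.2% of all named genes. Above the genes of other organs on every array were 4 of them, against 24.1% of all named genes. Trim14, a RING-less adaptor of the mitochondrial protein MAVS, was at 9.27, 9.10, 9.39 and 9.10 (9.22 ± 0.14, adjusted p of 0.0108). Trim21, the cytosolic antibody receptor that destroys antibody-bound virus, was at 8.84, 8.22, 8.51 and 8.29 (8.46 ± 0.28, adjusted p of 0.0143). Trim25, the ligase best known for acting on the RNA sensor RIG-I, was at 8.31, 8.43, 8.51 and 8.39 (8.41 ± 0.08, adjusted p of 0.0143). Trim27, a ligase and transcriptional co-repressor, was at 8.21, 7.90, 8.01 and 7.76 (7.97 ± 0.19, adjusted p of 0.0143). Trim25 was among the steadiest TRIM genes called, whereas Trim21 differed by 0.61 log2 units between array 1 and array 2.

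The remaining 7 called genes of this group had at least 1 array at or below the top of the negative control genes. Trim11 was at 7.45 ± 0.06 and Trim65, which acts on the RNA sensor MDA5, at 7.38 ± 0.09. Trim68 was at 7.10 ± 0.41, Trim35 at 7.10 ± 0.30, Trim26, which lies in the MHC region, at 6.80 ± 0.12, and Trim41 at 6.80 ± 0.23. Trim39, also of the MHC region, was at 6.47 ± 0.21, near the threshold, and was not called with olfactory receptor genes alone as background. Trim47 just missed the threshold at 6.36 ± 0.09, with an adjusted p of 0.0504, and was called without array 1 and without array 2. Trim62 at 6.09 ± 0.06, Trim7 at 6.06 ± 0.16 and Trim58 at 5.99 ± 0.04 were not called by the detection test, although limma's test called them. The other 8 uncalled genes of the group, from Trim10 to Trim75, had means between 4.66 and 5.47. Of the 5 neighbouring genes Trim26, Trim15, Trim10, Trim40 and Trim31 in the MHC region, Trim26 alone was called, against 46.2% of all named genes.

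NHL repeat proteins bind RNA or other proteins through a propeller-shaped C-terminus. Of 4 genes, 3 were called and 0 were above the genes of other organs on every array. The shares of all named genes were 46.2% and 24.1%. Trim32, known from limb-girdle muscular dystrophy, was at 6.79, 7.31, 7.09 and 6.18 (6.84 ± 0.49), so that array 4 lay below the lowest mean called. Trim71, the stem cell gene also called Lin41, was at 6.73 ± 0.12 and Trim3 at 6.72 ± 0.20. Both lie at levels that muscle and liver genes also reached, so the calls carry little weight. Trim2 was at 5.33 ± 0.31 and was not called, although its promoter held the interferon core.

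Among genes with a MATH, ARF, filamin or transmembrane C-terminus, 3 of 5 were called, against 46.2% of all named genes. Trim59, a membrane-anchored member, was at 8.68, 8.32, 8.91 and 8.23 (8.53 ± 0.32, adjusted p of 0.0143). Trim23, which carries an ARF GTPase domain and acts in autophagy, was at 8.42, 8.13, 8.48 and 8.11 (8.28 ± 0.19, adjusted p of 0.0143). Both were higher on arrays 1 and 3, on which the B cell marker list was also higher, at 8.67 and 8.86 against 7.82 and 7.68 on arrays 2 and 4. Of the 29 called TRIM genes, 7 (24.1%) had both of these arrays above both others, namely Trim12a, Trim14, Trim21, Trim23, Trim27, Trim34a and Trim59, against 16.4% of all called genes. The opposite order was seen in 6 (20.7%), namely Trim11, Trim24, Trim28, Trim30d, Trim39 and Trim41, against 15.5% of all called genes. The part of B cells in these values was not tested. Trim37, the MATH domain ligase mutated in Mulibrey nanism, was called at 6.83 ± 0.20, a level that the negative control genes also reached. Trim45 at 5.87 ± 0.14 and Trim13, at 4.73, 4.18, 4.84 and 4.01, were not called.

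Genes with a COS box encode proteins that bind microtubules or the muscle sarcomere. They were called in 1 of 8 cases and in 0 cases lay above the genes of other organs. The shares of all named genes were 46.2% and 24.1%. The 1 call, Trim67, a gene known from neurons, was at 6.47 ± 0.10 and was lost with olfactory receptor genes alone as background. The muscle ligase genes Trim63, Trim55 and Trim54, known as MuRF genes, were at 4.99 ± 0.03, 5.05 ± 0.09 and 5.57 ± 0.06 and were not called. Trim9, Trim36, Trim42 and Trim46 had means between 4.78 and 5.53.

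Of 7 genes with no named C-terminal domain, 3 (42.9%) were called, close to the 46.2% of all named genes. Trim44, a RING-less member with a zinc finger of the deubiquitinase type, was at 8.92, 8.87, 8.48 and 8.93 (8.80 ± 0.22), lowest on array 3. Trim56, which acts in the response to cytosolic DNA and double-stranded RNA, was at 8.90, 8.95, 8.62 and 8.30 (8.69 ± 0.30). Both had an adjusted detection p of 0.0143 and were above the genes of other organs on every array. Trim8, a regulator of cytokine signalling through SOCS1, was at 7.75, 7.07, 6.71 and 7.16 (7.18 ± 0.43) and was called, although only array 1 exceeded the negative control genes. Trim29, Trim31, Trim40 and Trim52 had means between 4.87 and 5.64 and were not called. Trim80, the only member in none of these groups, was at 4.73 ± 0.10 and was not called.

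**Figure D3:**
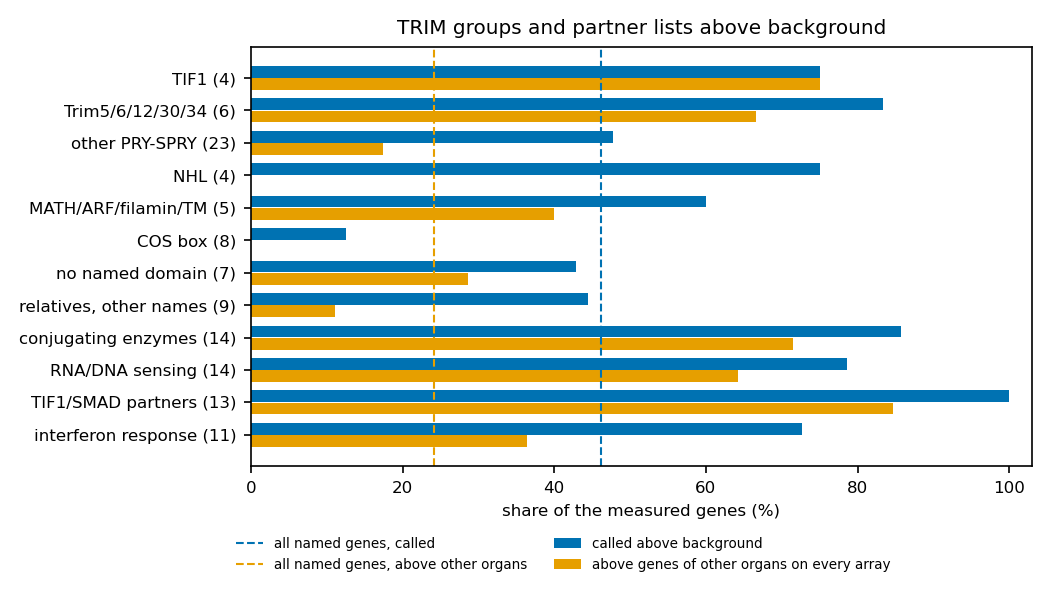
Share of measured genes (x axis, percent) called above background (upper bars) and above the genes of other organs on every array (lower bars) in each TRIM group and partner list (y axis, number measured in brackets), with dashed lines for all named genes at 46.2% and 24.1%. Of the TRIM groups, TIF1, Trim5/6/12/30/34 and MATH/ARF/filamin/TM lie right of both lines and COS box left of both, with 4 to 8 genes each.

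The called TRIM genes differed between arrays slightly more than all called genes by the values below, which were not tested. Their median SD was 0.200 log2 units, against 0.168 over all genes called above background, and 19 of 29 had an SD above that value. The SD of 3 genes, Trim12c, Trim30d and Trim32, exceeded 0.476, the 95th percentile of all called genes. A range of over 1 log2 unit between arrays was seen in 4 called TRIM genes (13.8%), the same 3 and Trim8, against 6.23% of all called genes. Trim68, with the fifth largest SD, was at 6.84, 7.35, 7.53 and 6.68. The 5 genes had their lowest values on array 2, array 3, array 4, array 3 and array 4 in the order Trim12c, Trim30d, Trim32, Trim8 and Trim68, so no 1 array held them all.

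Each array held the highest value of some called TRIM genes and the lowest of others. Of the 29 called genes, 5, 7, 7 and 10 were highest on arrays 1 to 4 (17.2%, 24.1%, 24.1% and 34.5%), against 26.4%, 25.9%, 25.0% and 22.6% of all called genes, a difference that was not tested. Lowest on arrays 1 to 4 were 7, 6, 8 and 8 genes, against 24.1%, 21.5%, 27.3% and 27.1% of all called genes. Interferon response genes, of which 8 of 11 were called against 46.2% of all named genes, had list means of 7.29, 7.29, 7.53 and 7.61. The means on arrays 1 and 2 were nearly equal, at 7.288 and 7.295, so their order carries little weight. Trim30a was also higher on arrays 3 and 4 than on arrays 1 and 2, whereas Trim30d, Trim34a and Trim21 were not. How many other called genes share this order was not counted. With 4 arrays no correlation was computed.

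**Figure D4:**
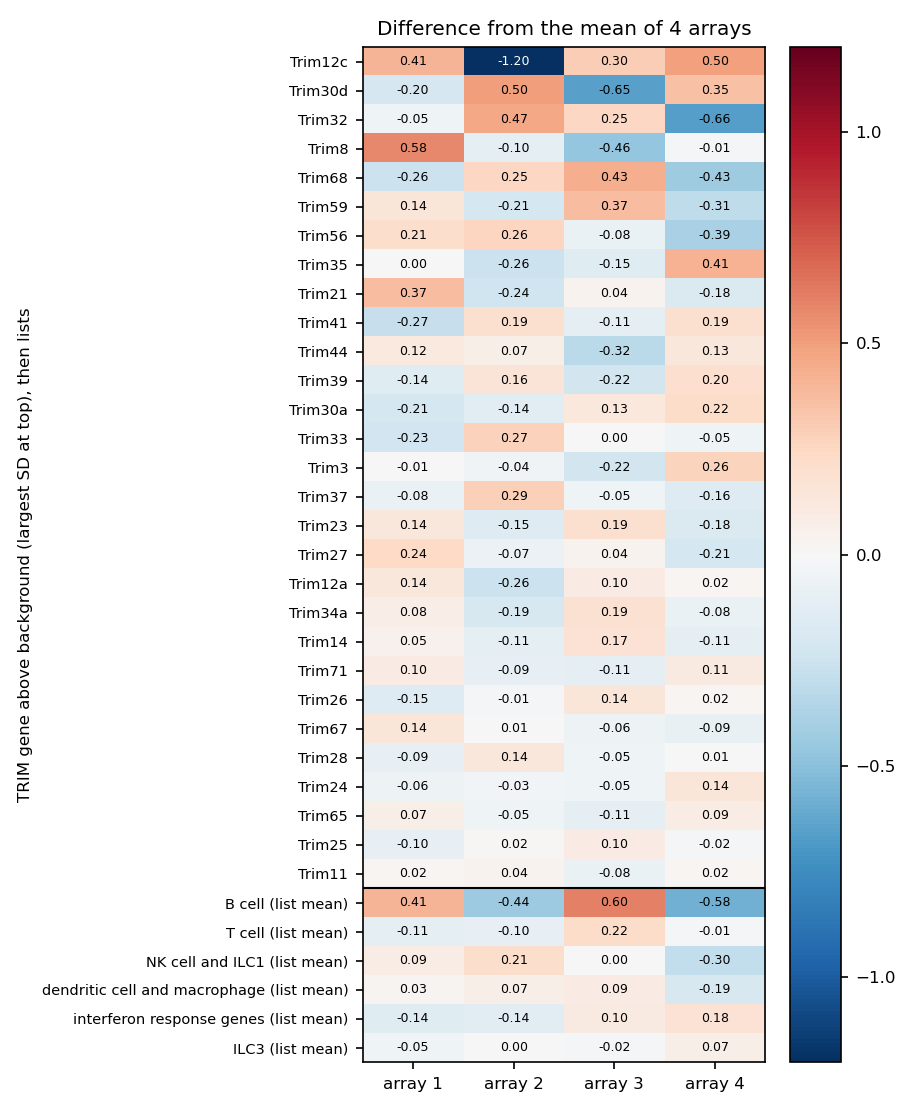
Difference of each array from the mean of the 4 arrays (colour and printed number, log2 units) for the 29 TRIM genes called above background, largest SD at the top, and for the mean of 6 marker or response lists at the bottom. Trim12c on array 2, at 1.20 below its mean, is the largest difference, and the B cell list differs more between arrays than the other lists shown.

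Relatives of the family that go by other names were called in 4 of 9 cases (44.4%), close to the 46.2% of all named genes. Pml, the organiser of nuclear bodies also known as TRIM19, was at 8.11, 8.10, 8.08 and 8.61 (8.22 ± 0.26, adjusted p of 0.0143) and was the 1 gene of the list above the genes of other organs on every array. Mid1 and Mid2, microtubule-binding relatives, were at 6.999 ± 0.431 and 6.55 ± 0.24 and Bspry at 6.77 ± 0.36. Cmya5 at 5.43 ± 0.02 and Mefv, the gene of pyrin, at 5.01 ± 0.05 were not called. Triml1 at 5.01 ± 0.02 was not called either and was chosen after its value was seen.

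Genes of a list of ubiquitin and SUMO conjugating enzymes were called in 12 of 14 measured cases, against 46.2% of all named genes. Of these genes, 10 were above the genes of other organs, against 24.1% of all named genes. Which of them act with a TRIM protein in these cells was not tested. Ube2d3 was at 12.44 ± 0.06, Ube2l3 at 11.28 ± 0.07, Ube2d2a at 10.91 ± 0.09 and Ube2v1 at 10.46 ± 0.14. Ube2n, which builds K63-linked chains together with Ube2v1 and was chosen after its values were seen, was at 9.51 ± 0.11. Ube2w at 6.15 ± 0.48 and Ube2l6, the enzyme for ISG15, at 5.72 ± 0.10 were not called.

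The sensors and adaptors on which antiviral TRIM proteins act were called in 11 of 14 cases, and 9 were above the genes of other organs. The shares of all named genes were 46.2% and 24.1%. Tab2, a target of the Trim30a protein, was at 11.50 ± 0.11. Sting1, the adaptor for cytosolic DNA, was at 10.59 ± 0.13, and Ddx58, which encodes RIG-I, at 9.53 ± 0.07, beside the Trim25 level of 8.41 ± 0.08. Tbk1 was at 8.71 ± 0.16. Rnf135, a RING ligase for RIG-I, at 6.15 ± 0.37 and Cgas, the DNA sensor, at 5.51 ± 0.03 were not called. Of the interferon response genes, Bst2 was at 9.78 ± 0.21, Rtp4 at 9.87 ± 0.31, Usp18 at 7.89 ± 0.51 and Ifit3 at 8.77 ± 0.09, while Ifit2 at 5.38 ± 0.38 and Rsad2 at 5.56 ± 0.26 were not.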

How the data were processed

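Total RNA of 4 sorted CCR6+ ILC3 samples was measured on 4 arrays, all of 1 group. The authors deposited 1 log2 value per probe set and array, computed by RMA per the submitters' processing notes, without a stated version or genome build. That method corrects background, equalises the arrays and combines a set's probes by median polish. With it 7 TRIM genes had the same value on at least 2 arrays, 6 of them not called, so the SD of these may be understated. Raw scans were not used here, and the number of arrays limits the precision.

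Of 35556 probe sets, 21789 had a single symbol in GEO's platform annotation, 1621 several and 12146 were not listed. Symbols of 21698 were updated through RefSeq's gene table (GRCm38.p6). Among 999 genes with several probe sets, the one with the highest mean was used. Detection was tested as a rank among background genes, which were receptor genes for odours, pheromones, trace amines and bitter taste (Python 3.11.15, pandas 2.3.3), with limma 3.58.1 and the 95th percentile of background genes as alternatives. The smallest detection p was 0.000808. Calculations were tested on simulated data. The members and lists were chosen with earlier results of these data known. Of 66 wanted partner genes, 61 were measured. The rule for named genes gave array values for TRIM genes above all genes of other organs and for the 5 with the largest SD, and means for other called TRIM genes, the 6 uncalled with the highest means and up to 4 called and 2 uncalled genes per partner list; other genes were named after their values were seen.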

Additional observations from a re-analysis of the deposited data

Results flagged for a closer look

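In 10 of the 58 TRIM genes the gap of 1 array to the nearest, as a share of the gene's range, was beyond Dixon's 95% critical value. This ratio does not depend on the size of the gap. Chance flags about 1 in 20 groups, a rate that does not hold for genes with tied values. No share over all named genes is given beside this count, so it is not read as an excess in the family. The ratio was 0.883 for Trim12c, at 6.504 on array 2 and 8.003 to 8.202 on the others. It was 0.856 for Trim11, 0.864 for Trim24 and 0.866 for Trim44, which are above background and whose ranges were 0.12, 0.21 and 0.46 log2 units. It was 0.835 for Trim55 and 0.846 for Trim72, and 1.00 for Trim50, Trim58, Trim63 and Trim69, whose other 3 arrays had the same value. These 6 genes were not called. The ranges of the tied genes Trim50, Trim58, Trim63 and Trim69 were only 0.058, 0.084, 0.051 and 0.008 log2 units.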

How the results depend on the processing

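The call held under all 10 alternatives for 52 of the 58 TRIM genes, and for 27 of the 29 called. Not all alternatives could change a call freely. Centring the arrays shifts every gene mean by the same amount, so its count was fixed in advance. Each TRIM gene had 1 probe set, so the mean and lowest probe set settings left all TRIM values unchanged and altered only other genes. The count called was 29 to 30 when 1 array was left out, 29 with centred arrays, 30 with the mean or the lowest of a gene's probe sets, 33 by limma and by the 95th percentile of background, and 27 with olfactory receptor genes alone as background, a smaller background set that also called fewer of all genes (43.1%). Under that setting Trim39 and Trim67 were lost, and the COS box count became 0. Trim47 was gained under 6 alternatives, and Trim7, Trim58 and Trim62 under limma and the percentile. No paired analysis was possible because there is 1 group. A gene at a low level can be missed, since signal over background limits detection.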
